A study of Homo sapiens with 4 samples.

Results

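The genes described here are the enzymes of cholesterol and fatty acid synthesis together with the regulators that adjust them to the sterol content of the cell. Members were taken from a list of 37 gene symbols, and a gene was counted as measured where the array held a probe set assigned to that gene alone. By this rule 32 genes with 71 probe sets were measured, out of 19775 genes with 41091 such probe sets in the whole table. Of the other 5, CYP51A1, FADS1 and ELOVL1 have probe sets that the probe table assigns to more than 1 gene, and FDFT1 and ACSL3 were not matched; these 5 are not analysed here. The cells were PC3, an established human prostate cancer cell line grown in medium with serum, transfected for 48 h with 40 nM of control siRNA (2 arrays) or of COUP-TFII siRNA (2 arrays). COUP-TFII belongs to the nuclear receptor family and has no established natural ligand. No other agent was given to either group. The labels do not say whether the replicates were separate transfections, so every p-value rests on array-to-array spread alone, part or all of which may be technical.

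Cholesterol is built from acetyl-CoA through mevalonate, farnesyl diphosphate, squalene and lanosterol. Fatty acids are built from the same precursor by a carboxylase and a synthase, and are then elongated, desaturated and joined to coenzyme A. Most of these genes are transcribed under the control of the SREBP factors, which are held in the endoplasmic reticulum by SCAP and the INSIG proteins when sterols are plentiful and are released to the nucleus when sterols fall. Prostate cancer cells are known for active lipid synthesis.

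The 4 arrays had median intensities of 31.7 to 32.9, and no further scaling was applied. The epithelial markers EPCAM, KRT8, KRT18, KRT19 and CDH1 lay between 2024 and 9941 on every array. The luminal prostate markers KLK2 and KLK3 lay between 8.56 and 25.9, whereas TMPRSS2, also on the luminal list, rose from 132 and 157 to 391 and 392, so that the summed luminal level was 176 to 180.3 in the control arrays and 427 to 431 in the COUP-TFII siRNA arrays. Of the other marker lists, those of leukocytes, adipocytes and hepatocytes did not exceed 47.1 for any gene. The endothelial sum was 174 to 180.4 against 206 to 263, nearly all PECAM1, with VWF and CDH5 at 17.8 or below. The fibroblast sum was 664 to 741 against 1061 to 1068. Most of it was COL1A1, at 599 and 540 against 962 and 950, with COL3A1, DCN and LUM at 85.3 or below. For ACTB, the 3′ control signal over the 5′ one, which rises as RNA degrades, was 1.52 and 1.83 in the control arrays and 1.42 and 1.46 in the COUP-TFII siRNA arrays. The same ratio for GAPDH was 0.957 and 0.986 against 0.994 and 0.986. Their part in the results was not tested.

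Lipid synthesis genes were lower more often than higher after COUP-TFII siRNA, and the decrease was uneven along the pathway. MSMO1, ELOVL6, STARD4 and INSIG1 (4 of the 32, against 1.68% of all genes) passed with a decrease of more than 2-fold, SQLE, FDPS, ACAT2, HSD17B7, SCD and ELOVL5 fell by smaller amounts, and HMGCS1, LSS, DHCR7, ACLY and FASN did not pass the test, with log2 fold changes between −0.08 and 0.02. TM7SF2 and INSIG2 rose. Of the 32 measured genes, 15 were lower (46.9%) and 2 higher (6.25%) at an adjusted p of 0.05 (limma, Benjamini-Hochberg over all genes), and 15 did not pass. Among all 19775 genes tested, 10.3% passed as lower and 12.8% as higher, 23.1% in either direction. Those shares include dim genes, whereas of the 32 genes only IDI1 lay below the median gene in mean intensity. With genes below that median left out, 5322 genes passed in all, and 18 members were lower and 2 higher. Shares of the members and of all genes therefore compare genes of unlike intensity, and the part of intensity was not tested. The median log2 fold change was −0.20 over the 32 genes and 0.01 over all genes, and 26 of the 32 (81.2%) lay below 0, as did 47.9% of all genes. The values of both COUP-TFII siRNA arrays lay below both control arrays for 19 of the 32 genes, a pattern found in 26.7% of all genes, and above both for 4, a pattern found in 30.8%. Log2 fold changes are on the log2(value + 16) scale, which understates the change of dim genes.

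**Figure D1:**
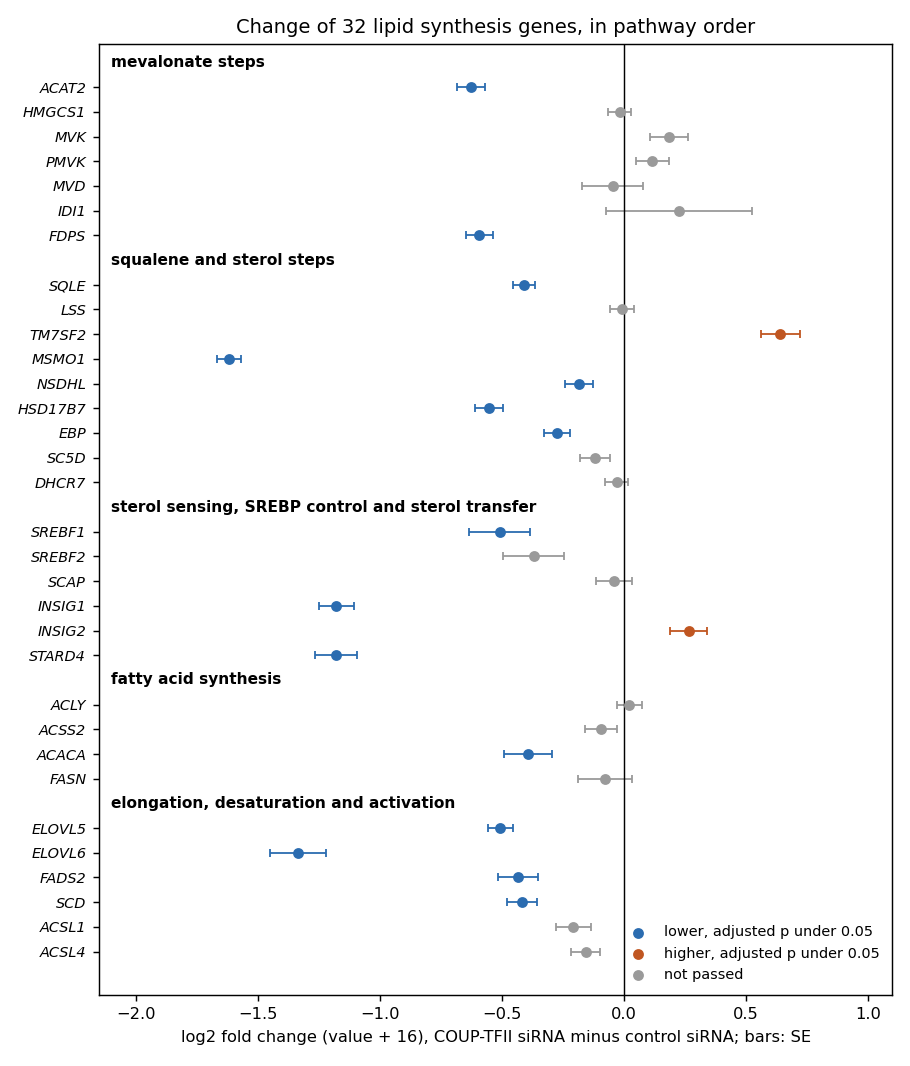
Log2 fold change (x axis, COUP-TFII siRNA minus control siRNA, on the log2(value + 16) scale) of the 32 genes, arranged by pathway step on the y axis, with bars for the SE of the limma fit on 2 arrays per group. Blue points passed as lower (15 genes), orange points as higher (TM7SF2 and INSIG2), and grey points did not pass; MSMO1 lies farthest to the left at −1.62.

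The count of falls depended on what was taken as zero. Centring each array on the median level of 11 measured housekeeping genes, called housekeeping centring here, raised every log2 fold change by 0.23. That level was the value of PGK1 on 3 arrays and of TFRC on 1, and the median change of the 11 genes was only −0.05. Without centring, PGK1 itself passed as lower (−0.26, limma adjusted p = 0.00371), and TFRC was at −0.02 and did not pass. Of the 11 genes, 2 passed as lower, PGK1 and HPRT1 (−0.77), and 1 as higher, SDHA (0.20). After this centring the members split into 10 lower and 8 higher, with a median of 0.03. Among all genes 5.71% were then lower and 32.0% higher, with a median of 0.24. Of all calls in the table, 55.3% were higher without centring and 84.9% with it. The 10 genes still lower were MSMO1, ELOVL6, STARD4, INSIG1, ACAT2, FDPS, HSD17B7, ELOVL5, SCD and SQLE, and HMGCS1, LSS, DHCR7, MVK, PMVK and ACLY joined TM7SF2 and INSIG2 among the higher ones. Of the lower ones, SQLE was then at −0.18, SCD at −0.19, ELOVL5 at −0.28, HSD17B7 at −0.33, FDPS at −0.37 and ACAT2 at −0.40 on the log2 scale. Centring on the median of the 11 genes' own changes, an alternative added after seeing the data, raised log2 fold changes by 0.09. With it, 14 members were lower (8.63% of all genes) and 4 higher (19.7%), MVK and PMVK among the latter. The member median was then −0.11, against 0.10 over all genes, and 69.6% of all calls were higher. With 1 prior variance for all genes in place of a trend with intensity, 7 members were lower and 0 higher, among 1589 calls in all in place of 4563. SQLE, NSDHL, EBP, SREBF1, ACACA, ELOVL5, FADS2, SCD, TM7SF2 and INSIG2 then missed the threshold (limma adjusted p = 0.0733 for SQLE). Without control replicate 1, control replicate 2, COUP-TFII siRNA replicate 1 and COUP-TFII siRNA replicate 2 in turn, 10, 10, 10 and 12 members were lower and 1 was higher in each fit.

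**Figure D2:**
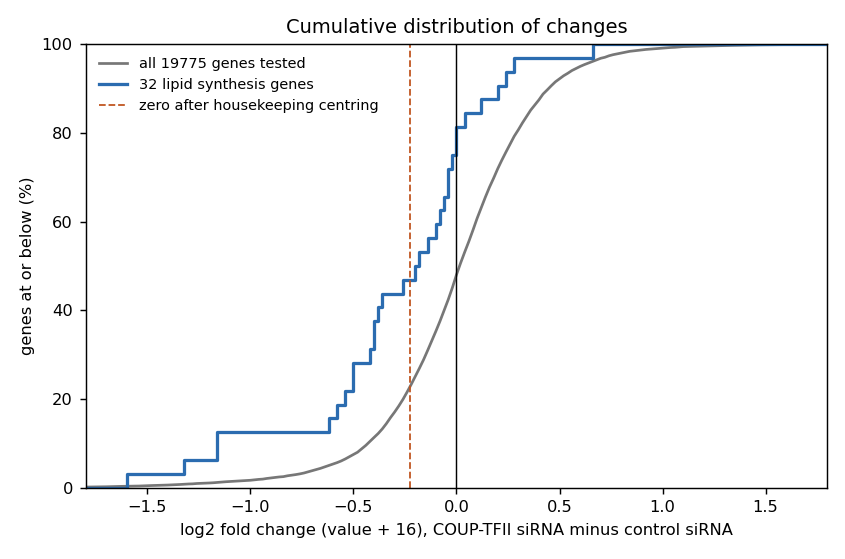
Cumulative share of genes (y axis, %) at or below each log2 fold change (x axis, COUP-TFII siRNA minus control siRNA), for the 32 lipid synthesis genes (blue) and all 19775 genes tested (grey). The blue curve reaches 81.2% at 0, where the grey curve is at 48.0%; the dashed line marks where 0 would lie after centring on housekeeping genes, a shift of 0.23.

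The mevalonate steps opened with a fall at the first enzyme. ACAT2, the cytosolic thiolase that joins acetyl-CoA units, read 2029 and 1959 in the control arrays and 1321 and 1254 in the COUP-TFII siRNA arrays. The groups did not overlap, and the change was −0.63 ± 0.06 on the log2 scale (SE; limma adjusted p = 7.78e-05). HMGCS1, which condenses the product to HMG-CoA and is a classical SREBP target, read 3196 and 3274 against 3243 and 3153. These groups overlapped, and its log2 fold change of −0.02 had a 95% confidence interval from −0.12 to 0.09, so a fall as large as that of ACAT2 lies outside the interval; after housekeeping centring it was 0.21 and passed as higher.

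The following enzymes of this stretch did not pass as lower. The kinase genes MVK and PMVK were at 0.18 and 0.12 on the log2 scale (limma adjusted p = 0.13 and 0.274), with both COUP-TFII siRNA arrays above both control arrays. The decarboxylase gene MVD was at −0.05 with a wide interval, from −0.33 to 0.24. IDI1, the isomerase, was represented by a dim probe set at 19.9 to 50.4, since its bright ones carry the _x_at mark of possible cross-hybridisation. The brightest of those read 2157 and 2065 in the control arrays and 1850.2 and 1926 in the COUP-TFII siRNA arrays, a log2 fold change of −0.16 that did not pass (limma adjusted p = 0.111 over all probe sets).

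FDPS, the farnesyl diphosphate synthase at the branch to sterols, prenyl groups and dolichol, read 5801 and 5869 in the control arrays and 4063 and 3673 in the COUP-TFII siRNA arrays. Its change was −0.59 ± 0.06 on the log2 scale (SE; limma adjusted p = 9.01e-05). Of the 7 mevalonate genes, ACAT2 and FDPS, at the entry and the exit, were the 2 that passed, and none passed as higher. These 2 are 28.6% of the 7, beside 10.3% of all genes that passed as lower.

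In the squalene and sterol steps, 5 of the 9 genes with a value were lower, 1 was higher and 3 missed the threshold. These are 55.6% lower and 11.1% higher, beside 10.3% and 12.8% of all genes. The median log2 fold change was −0.18, against 0.01 over all genes. After housekeeping centring 3 were lower and 3 higher, beside 5.71% and 32.0% of all genes, and the median was 0.04 (0.24 over all genes). SQLE, the squalene epoxidase and a control point of the pathway, read 7072 and 6914 in the control arrays and 5394 and 5147 in the COUP-TFII siRNA arrays, which is −0.41 ± 0.05 on the log2 scale (SE; limma adjusted p = 0.000245). When every probe set was tested by itself, 3 of the 4 SQLE probe sets passed as lower. LSS, which closes the ring to lanosterol, read 2555 and 2547 against 2596 and 2481, an overlap with a log2 fold change of −0.01 and a 95% confidence interval from −0.12 to 0.11.

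Of the enzymes that strip methyl groups from the sterol ring, MSMO1, HSD17B7 and NSDHL were measured. The first 2, each on its only probe set, held their fall in every alternative of the fit. MSMO1, the sterol methyl oxidase, read 5691 and 5454 in the control arrays and 1827 and 1788 in the COUP-TFII siRNA arrays. This was a 3.07-fold decrease, the largest among the 32 genes, at −1.62 ± 0.05 on the log2 scale (SE; limma adjusted p = 3.85e-07). HSD17B7, the keto-sterol reductase of the same reaction sequence, read 1768 and 1811 against 1243 and 1187, at −0.55 ± 0.06 (SE), on a single _x_at probe set. NSDHL, the dehydrogenase that acts between them, was at −0.18 ± 0.06 (SE; limma adjusted p = 0.0468) and did not pass when any 1 array was left out (limma adjusted p = 0.0977 to 0.246), nor after housekeeping centring, where it was 0.04.

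TM7SF2, a sterol reductase that acts just before these enzymes, went the other way. It read 604.8 and 680.3 in the control arrays and 959.7 and 1062 in the COUP-TFII siRNA arrays. The 2 groups did not overlap, and the change was 0.64 ± 0.08 on the log2 scale (SE; limma adjusted p = 0.000531). This was the largest rise among the 32 genes. It was 0.87 after housekeeping centring and did not pass with 1 prior variance for all genes (limma adjusted p = 0.0519).

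Of the last steps, 1 of 3 genes passed, as lower, beside 10.3% of all genes that passed as lower and 23.1% in either direction. EBP, the sterol isomerase, fell by 0.27 on the log2 scale (limma adjusted p = 0.00552). It passed on 2 of its 4 probe sets and stayed past the threshold in 1 of the 4 fits that leave out an array. It was at −0.05 after housekeeping centring (limma adjusted p = 0.534). SC5D, the desaturase, was at −0.12 and did not pass. DHCR7, the reductase that completes cholesterol in 1 branch, read 2817 and 2875 against 2820 and 2755, at −0.03 with a 95% confidence interval from −0.14 to 0.08. SC5D was at 0.11 and DHCR7 at 0.20 after housekeeping centring.

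The regulators of the pathway moved in both directions. INSIG1, which retains SCAP and its SREBP cargo in the endoplasmic reticulum and is itself an SREBP target, read 4068 and 3983 in the control arrays and 1919 and 1635 in the COUP-TFII siRNA arrays. The change was −1.18 ± 0.07 on the log2 scale (SE; limma adjusted p = 9.08e-06), and all 3 INSIG1 probe sets passed as lower, at −1.18, −0.87 and −0.48. INSIG2, the paralog with the same retaining role, read 542.6 and 508.8 against 647 and 622.1, a rise of 0.26 ± 0.07 (SE; limma adjusted p = 0.0312). The rise of INSIG2 did not pass when any 1 array was left out (limma adjusted p = 0.0958 to 0.22).

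SREBF1, the gene of the SREBP more tied to fatty acids, read 320.6 and 318.6 in the control arrays and 193.4 and 249.9 in the COUP-TFII siRNA arrays, at −0.51 ± 0.12 (SE; limma adjusted p = 0.0173). The groups did not overlap, but the COUP-TFII siRNA arrays differed from each other, and the call held in 1 of the 4 fits that leave out an array (limma adjusted p = 0.0248 to 0.16) and not after housekeeping centring (−0.28, limma adjusted p = 0.102). SREBF2, the gene of the SREBP more tied to sterols, read 169.1 and 188.8 against 133 and 136.6. It was at −0.37 ± 0.12 (SE) and did not pass (limma adjusted p = 0.0651), and the groups did not overlap. The other SREBF2 probe sets were at −0.17 and 0.16 and did not pass. With its probe sets averaged SREBF2 was at −0.12 (limma adjusted p = 0.519), and after housekeeping centring at −0.14. SCAP, the sterol-sensing escort, read 588.9 and 551.8 against 561.9 and 546.2, which overlap, at −0.04 with a 95% confidence interval from −0.21 to 0.13. STARD4, a carrier of cholesterol between membranes and an SREBP target, read 507 and 501.9 against 214.4 and 213.2, at −1.18 ± 0.09 (SE; limma adjusted p = 2.28e-05) on its only probe set.

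**Figure D3:**
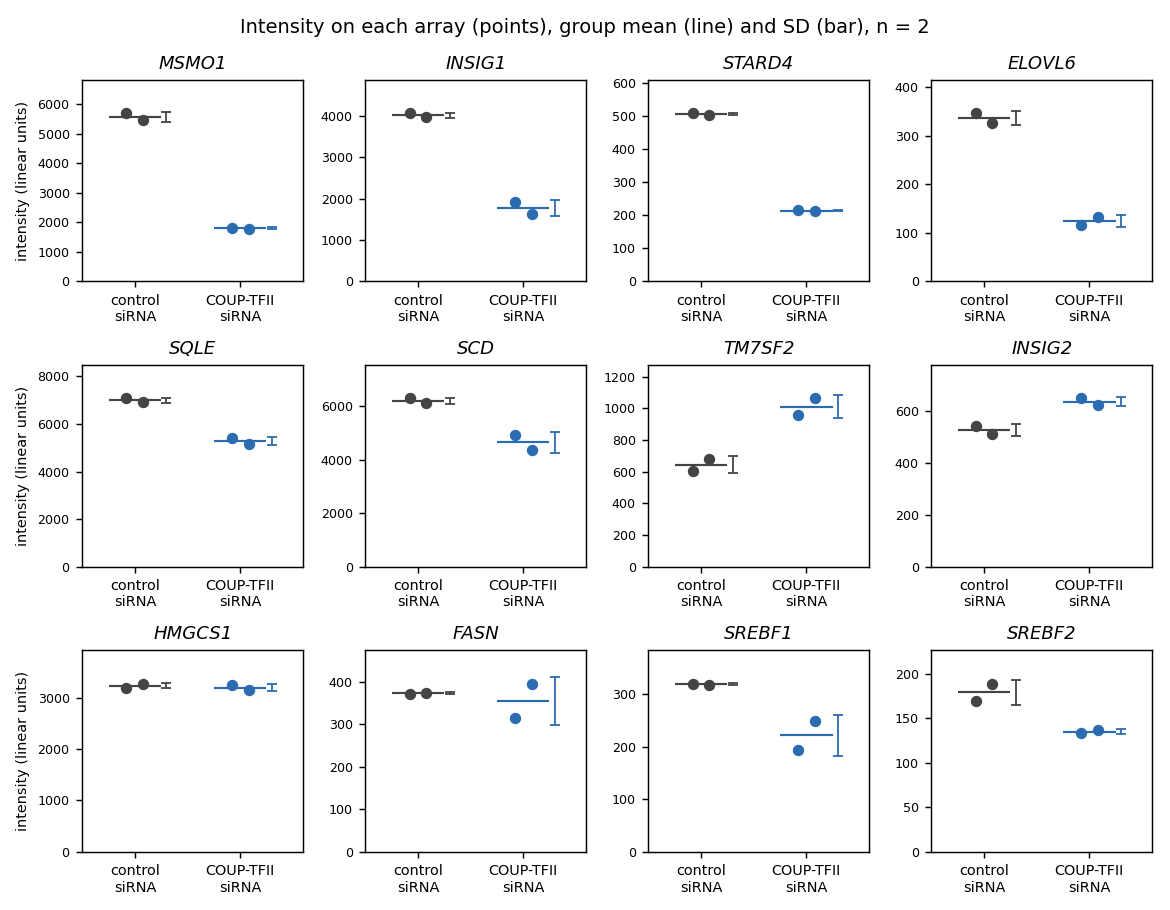
Intensity (y axis, linear units from 0) of 12 of the genes on each array, with 2 points per group, a line at the group mean and a bar for the SD (n = 2). For MSMO1, INSIG1, STARD4 and ELOVL6 the COUP-TFII siRNA arrays lie far below the control arrays (MSMO1 at 1827 and 1788 against 5691 and 5454), TM7SF2 and INSIG2 lie above, and HMGCS1 and FASN overlap.

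CCAAT boxes lay in the promoters of genes that fell, rose or did not pass. Sequences of 300 bases (250 before and 50 after the start) from RefSeq, build GRCh38.p14, were matched to 29 of the 32 genes, and to 15384 of all genes tested. The CCAAT box (letters CCAAT, either strand), the motif bound by NF-Y, which acts with SREBP at sterol genes, was found in 23 of 29 (79.3%), against 41.7% of all genes. It was in 11 of the 13 genes that fell and had a sequence, and in 12 of the 16 others. Promoters are shown 5′ to 3′ with CCAAT boxes of either strand in capitals: MSMO1 (chr4:165327419-165327718, plus strand), INSIG1 (chr7:155297628-155297927, plus strand) and STARD4 (chr5:111512486-111512785, minus strand), which fell by more than 2-fold, TM7SF2 (chr11:65111622-65111921, plus strand), which rose, and the upstream of the 2 starts listed for HMGCS1 (chr5:43313363-43313662, minus strand), which did not pass.
MSMO1: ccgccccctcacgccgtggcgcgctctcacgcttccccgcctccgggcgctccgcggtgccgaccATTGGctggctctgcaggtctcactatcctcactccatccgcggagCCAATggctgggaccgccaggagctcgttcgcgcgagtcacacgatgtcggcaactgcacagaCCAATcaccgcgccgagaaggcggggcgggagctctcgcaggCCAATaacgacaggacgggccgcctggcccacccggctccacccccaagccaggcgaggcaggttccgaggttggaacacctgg
INSIG1: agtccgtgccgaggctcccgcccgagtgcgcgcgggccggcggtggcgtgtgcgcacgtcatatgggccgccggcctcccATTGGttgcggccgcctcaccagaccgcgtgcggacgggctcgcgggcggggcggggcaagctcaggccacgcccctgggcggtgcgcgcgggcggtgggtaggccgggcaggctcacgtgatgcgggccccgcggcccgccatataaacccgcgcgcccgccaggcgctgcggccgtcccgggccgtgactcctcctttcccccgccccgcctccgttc
STARD4: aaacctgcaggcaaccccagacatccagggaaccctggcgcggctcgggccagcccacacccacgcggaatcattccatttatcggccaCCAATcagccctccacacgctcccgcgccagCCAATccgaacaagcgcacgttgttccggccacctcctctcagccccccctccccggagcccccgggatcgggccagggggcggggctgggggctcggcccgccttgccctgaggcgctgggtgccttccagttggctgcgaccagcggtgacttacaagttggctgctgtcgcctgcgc
TM7SF2: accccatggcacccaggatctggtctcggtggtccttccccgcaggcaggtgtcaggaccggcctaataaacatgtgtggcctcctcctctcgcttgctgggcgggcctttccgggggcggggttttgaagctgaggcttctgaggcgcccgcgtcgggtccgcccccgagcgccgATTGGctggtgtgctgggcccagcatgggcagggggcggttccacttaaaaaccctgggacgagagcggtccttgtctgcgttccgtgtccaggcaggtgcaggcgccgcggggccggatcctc
HMGCS1: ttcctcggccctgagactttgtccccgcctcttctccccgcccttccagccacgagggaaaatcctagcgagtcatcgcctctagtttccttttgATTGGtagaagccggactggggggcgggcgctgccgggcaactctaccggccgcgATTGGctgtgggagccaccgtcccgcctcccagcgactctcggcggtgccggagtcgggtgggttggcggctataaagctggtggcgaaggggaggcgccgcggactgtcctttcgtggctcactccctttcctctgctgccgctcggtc

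MSMO1 has 4 such boxes in this window, STARD4 and HMGCS1 have 2 each, and INSIG1 and TM7SF2 have 1 each, while the listed ELOVL6 window and that of the other HMGCS1 start have 0. Counted from the start, the box begins at base −170 in INSIG1 and at base −74 in TM7SF2. The sterol regulatory element TCACNCCAC (either strand) was found in 2 of the 29 genes, SREBF2 and ACSL1 (6.9%), against 1.43% of all genes, and in 0 of the 13 that fell. The E-box CACGTG was found in 5 (17.2%, against 10.9%), including INSIG1. The nuclear receptor half-site AGGTCA (either strand) was found in 3, DHCR7, ACACA and ELOVL6 (10.3%, against 15.0%), and a direct repeat of it with 1 base between the copies, a form that COUP-TF proteins can bind, in 0 (against 0.0325%). These are matches of letters in a short window, and other windows were not searched.

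Of the 4 genes of fatty acid synthesis proper, 1 fell and 3 did not pass, beside 10.3% of all genes that passed as lower. With housekeeping centring 0 were lower and 1, ACLY, was higher, beside 5.71% and 32.0% of all genes. The median was then 0.14 (0.24 over all genes). ACACA, the carboxylase that makes malonyl-CoA, read 748.1 and 608.1 in the control arrays and 518.2 and 502.6 in the COUP-TFII siRNA arrays, at −0.39 ± 0.10 (SE; limma adjusted p = 0.0195). The groups did not overlap, but the control arrays lay farther apart than the lower of them lay from the higher COUP-TFII siRNA array. The fall passed without control replicate 2 and in none of the other 3 fits that leave out an array (limma adjusted p = 0.0291 to 0.179), and it was −0.17 after housekeeping centring (limma adjusted p = 0.167). FASN, the fatty acid synthase, read 371.4 and 374.3 against 314.5 and 395.3, which overlap, at −0.08 with a 95% confidence interval from −0.33 to 0.18. ACLY, which supplies cytosolic acetyl-CoA from citrate, was at 0.02 (95% confidence interval from −0.09 to 0.14), and ACSS2, which supplies it from acetate, at −0.09; neither passed.

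Of the 6 measured genes of elongation, desaturation and activation, 4 fell (66.7%, beside 10.3% of all genes) and 2 did not pass. ELOVL6, which elongates palmitate to stearate, read 345.7 and 326 in the control arrays and 115.3 and 132.2 in the COUP-TFII siRNA arrays, a 2.52-fold decrease, at −1.33 ± 0.11 on the log2 scale (SE; limma adjusted p = 5.55e-05). Of its 3 probe sets, 2 passed as lower, at −1.33 and −0.82, and the third, a dim one, was at 0.37 and did not pass; the average of all 3 was −0.59. ELOVL5, which elongates polyunsaturated chains, read 4861 and 4740.4 against 3490 and 3264, at −0.51 ± 0.05 (SE; limma adjusted p = 0.000133). Only this brightest of its 4 probe sets passed, and the mean over them was −0.15 (limma adjusted p = 0.298).

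SCD, the desaturase that makes oleate, read 6281 and 6117 in the control arrays and 4923 and 4369 in the COUP-TFII siRNA arrays, at −0.42 ± 0.06 (SE; limma adjusted p = 0.001), and 2 of its 4 probe sets passed. It was just short of the threshold without control replicate 1 or control replicate 2 (limma adjusted p = 0.0616 and 0.0516). FADS2, a desaturase of polyunsaturated fatty acids, read 619.4 and 699.4 against 471.7 and 495.5, at −0.43 ± 0.08 (SE; limma adjusted p = 0.00516). Among the 4 fits that leave out an array it passed only without control replicate 1 (limma adjusted p = 0.0348 to 0.0961), and it did not pass after housekeeping centring (−0.21, limma adjusted p = 0.0684). ACSL1 and ACSL4, which join fatty acids to coenzyme A, were at −0.21 and −0.16 and did not pass (limma adjusted p = 0.0712 and 0.102), with non-overlapping groups.

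Agreement between probe sets was read from a fit of all 54613 probe sets other than controls, of which 5.67% passed as lower and 6.51% as higher. Of the 71 probe sets of the 32 genes, 21 passed as lower, 1 as higher and 49 did not pass. Of the 52 with a mean intensity of 100 or more, 20 passed as lower, and of the 19 dimmer ones 1 did, the second ELOVL6 probe set. No gene had probe sets passing in opposite directions. With the probe sets of a gene averaged, 7 of the 15 falls missed the threshold, among them SCD (−0.32, limma adjusted p = 0.0666), FADS2 (−0.20, 0.185), SREBF1 (−0.29, 0.416), ACACA (−0.23, 0.105) and EBP (−0.0975, 0.62). A single probe set carried the value for 11 genes, among them the falls MSMO1, STARD4, FDPS, ACAT2 and HSD17B7. TM7SF2 and INSIG2, which rose, were also among the 11. Averaging could not change the log2 fold changes of these genes. Of the falls with several probe sets, only SQLE, INSIG1 and ELOVL6 still passed with averaging.

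**Figure D4:**
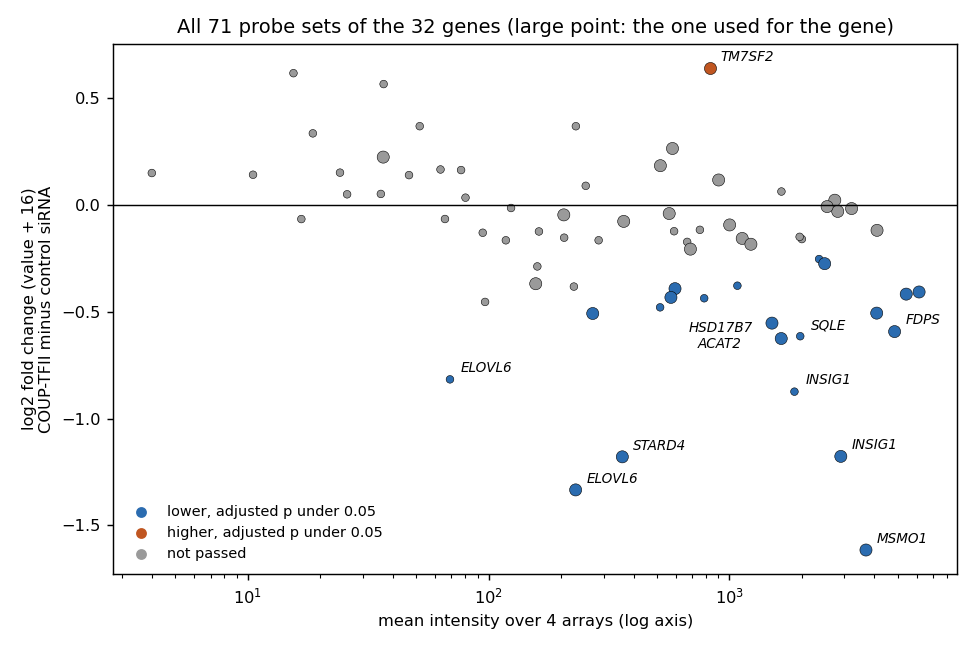
Log2 fold change (y axis, COUP-TFII siRNA minus control siRNA) against the mean intensity over the 4 arrays (x axis, log scale) for all 71 probe sets of the 32 genes, coloured by call in the fit of all probe sets, with larger points for the probe set that represents its gene. The 21 lower calls lie almost all at an intensity of 100 or more, and INSIG1, SQLE and ELOVL6 appear more than once among them.

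Genes around the pathway were read from lists of companions. Of 8 measured genes for SREBP processing and degradation of sterol proteins in the endoplasmic reticulum, 6 were lower and 0 higher. The shares of all genes were 10.3% and 12.8%, and the list median was −0.27 (0.01 over all genes). After housekeeping centring 3 were lower and 0 higher, beside 5.71% and 32.0% of all genes. ERLIN2 and ERLIN1, membrane proteins of the degradation machinery that acts on sterol-regulated proteins, were at −0.93 ± 0.08 and −0.50 ± 0.08 (SE). SPRING1, a cofactor of the protease that cleaves SREBP, was at −0.81 ± 0.07 (SE), from 2131 and 1972 to 1212 and 1111. AUP1, also of the degradation machinery, was at −0.28, and the protease genes MBTPS2 and MBTPS1 were at −0.26, which passed, and −0.04, which did not.

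Of 13 genes of sterol uptake, storage and export, 4 were lower (30.8%) and 2 higher (15.4%), beside 10.3% and 12.8% of all genes. The median was −0.16, against 0.01 over all genes. After housekeeping centring 2 were lower and 4 higher, beside 5.71% and 32.0% of all genes, and the median was 0.06 (0.24 over all genes). ABCA1, which exports cholesterol and is induced by sterol-sensing LXR receptors, read 147.3 and 136.5 in the control arrays and 58.1 and 79.1 in the COUP-TFII siRNA arrays (−0.91 ± 0.17, SE). TMEM97, a sterol-regulated membrane protein, was at −0.88 ± 0.07, MYLIP, an LXR-induced ubiquitin ligase, at −0.56 ± 0.13, and the lysosomal lipase gene LIPA at −0.22 ± 0.05 (SE). NPC2 and OSBP, which carry sterols, were the 2 that rose, at 0.19 and 0.21.

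Of the enzymes that complete each elongation cycle, HACD2, HACD3 and HSD17B12 fell. Among 18 other fatty acid genes 6 were lower and 0 higher, and the median was −0.20 (4 lower and 3 higher after housekeeping centring). Of all genes, 10.3% were lower and 12.8% higher, and 5.71% and 32.0% after that centring. HACD2 and HACD3, dehydratases of the cycle, were at −0.48 ± 0.06 and −0.36 ± 0.05, and HSD17B12, its keto-reductase, at −0.36 ± 0.06 (SE), from 2914 and 2711 to 2261 and 2100.1. TECR, the last reductase of the cycle, was at −0.15 and did not pass. MID1IP1, an activator of the carboxylase, was at −0.50 ± 0.10, and SCD5, a second stearoyl desaturase, at −0.46 ± 0.12 (SE). In the isoprenoid and dolichol branches, which leave the pathway after FDPS, 2 of 9 were lower (22.2%) and 3 higher (33.3%). Their median was 0.02, against 0.01 over all genes. After housekeeping centring 1 was lower and 6 higher, and the median was 0.24, as it was over all genes. PDSS1, which makes the side chain of ubiquinone, was at −0.68 ± 0.13, and FNTB, a farnesyltransferase subunit on a dim probe set, at 0.69 ± 0.20 (SE).

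**Figure D5:**
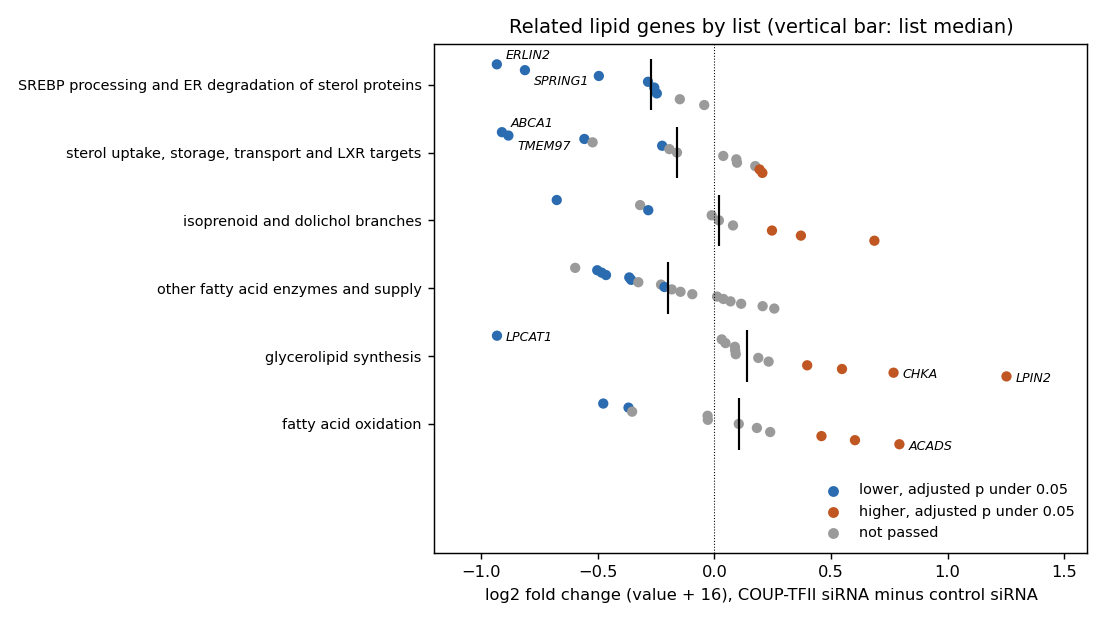
Log2 fold change (x axis, COUP-TFII siRNA minus control siRNA) of each measured gene in 6 lists of related lipid genes (y axis), coloured by call, with a vertical bar at each list's median. The list medians run from −0.27 for SREBP processing to 0.14 for glycerolipid synthesis, whose LPIN2 lies farthest to the right at 1.25.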

How the data were processed

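Biotin-labelled material from total RNA was measured on Affymetrix arrays with 1 colour, per the labels' protocols. The authors deposited probe set intensities on a linear scale; how probe sets were summarised, corrected for background and normalized is not given in the labels used here. Detection calls were not used, and precision is limited by the 4 arrays. The probe table named 1 gene for 41091 probe sets. Each gene was represented by its probe set with the highest mean log2(value + 16), avoiding _x_at probe sets where possible. Symbols were updated through Entrez identifiers (RefSeq, GRCh38.p14, 41037 matched).

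Groups were compared with limma 3.58.1 in R 4.3.3 (lmFit, eBayes with an intensity trend, no replicate block) over all 19775 genes, with Benjamini-Hochberg adjustment at 0.05. Lists were described by counts and medians, with no test. The members and lists were chosen with earlier results of these data known. All members were named, with array values for the largest 14 changes, the regulators, FASN, SCD and HMGCS1, and up to 4 passing genes per companion list. The array values of LSS, DHCR7 and IDI1, and the companions MBTPS1, MBTPS2, NPC2, OSBP, HACD3, TECR and CPT1A, were chosen after their values were seen. The targeted transcript is not reported here, so the siRNA labels were not checked against it. Alternatives covered the replicate block, scaling and 2 centrings on housekeeping genes, a pseudocount of 1 or 64, leaving out dim genes, the form of the prior variance, which probe sets stand for a gene, stricter thresholds and leaving out each array.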

Additional observations from a re-analysis of the deposited data

How the results depend on the processing

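Of the 17 genes that passed, 7 did so in all 17 alternatives of the fit (ACAT2, FDPS, MSMO1, HSD17B7, INSIG1, STARD4 and ELOVL6). Of these 7, ACAT2, FDPS, MSMO1, HSD17B7 and STARD4 have 1 probe set each. For them, averaging probe sets or allowing _x_at ones could not change the log2 fold change. The whole-table count of 4563 became 7465 with housekeeping centring, 1589 with 1 prior variance, 2781 at an adjusted p of 0.01, 1819 when a 1.5-fold change was also required, and 1792 to 2362 with 1 array left out. The 15 members lower became 10 with housekeeping centring, 7 with 1 prior variance, 8 with averaged probe sets and 6 when a 1.5-fold change was also required. They became 18 with quantile normalization, and also 18 with dim genes left out, where 5322 genes passed in all. The 2 members higher became 8 with housekeeping centring, 0 with 1 prior variance, 1 when all probe sets were tested, 1 at an adjusted p of 0.01, 1 when a 1.5-fold change was also required, and 1 with any array left out. The median of −0.1951 became 0.0299 with housekeeping centring, −0.2115 with quantile normalization, −0.1849 with median scaling, −0.1851 with a pseudocount of 64, −0.2066 with dim genes left out (IDI1 was then not tested), −0.1104 with averaged probe sets, and −0.214 to −0.1788 with 1 array left out. Housekeeping centring also turned HMGCS1 to 0.21, MVD to 0.18, LSS to 0.22, NSDHL to 0.0414, SC5D to 0.11, DHCR7 to 0.20, SCAP to 0.19, ACSS2 to 0.13, FASN to 0.15, ACSL1 to 0.02 and ACSL4 to 0.0686. Centring on housekeeping changes, added after seeing the data, gave 4 members higher and a median of −0.1101, and turned HMGCS1 to 0.0684, MVD to 0.0388, LSS to 0.0776, DHCR7 to 0.055, SCAP to 0.045 and FASN to 0.0083. Quantile normalization turned HMGCS1 to 0.0287 and LSS to 0.0258, and median scaling turned LSS to 0.003. Averaging probe sets turned IDI1 to −0.0535, LSS to 0.20, SC5D to 0.11, DHCR7 to 0.0166, ACLY to −0.091 and ACSL4 to 0.20, and allowing _x_at probe sets turned IDI1 to −0.16. With 1 array left out, ranges that crossed 0 were −0.18 to 0.083 for MVD, −0.0858 to 0.0057 for SCAP, −0.0148 to 0.0598 for ACLY, −0.0369 to 0.0036 for HMGCS1, −0.17 to 0.62 for IDI1, −0.23 to 0.0811 for FASN and −0.0401 to 0.0252 for LSS. Apart from the shift built into centring and the smaller number of arrays, the cause of these changes was not tested. The labels give both groups replicate numbers 1 and 2 but not what they share, and deviations of same-numbered arrays correlated at 0.018; with the replicate block 5132 genes passed, and 16 members were lower and 2 higher, the same 17 calls among them.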

Other observations

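Of 12 measured glycerolipid synthesis genes 4 were higher and 1 lower, beside 12.8% and 10.3% of all genes, and the median was 0.14. After housekeeping centring 9 were higher and 1 lower, beside 32.0% and 5.71% of all genes, and the median was 0.37 (0.24 over all genes). LPIN2, a phosphatidate phosphatase, read 337.2 and 296.2 in the control arrays and 816 and 736.4 in the COUP-TFII siRNA arrays, a rise of 1.25 ± 0.09 on the log2 scale (SE; limma adjusted p = 2.3e-05). CHKA, the choline kinase that starts phosphatidylcholine synthesis, rose by 0.77 ± 0.10 and DGAT1, which makes triglyceride, by 0.55 ± 0.06 (SE). LPCAT1, which reacylates lysophosphatidylcholine, was the 1 that fell, from 2392 and 2135 to 1188 and 1166.

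Fatty acid oxidation genes moved in both directions. Of 11 measured genes 3 were higher and 2 lower, and the median was 0.10, against 0.01 over all genes. After that centring 8 were higher and 1 lower, and the median was 0.33, against the 0.24 and the shares of all genes given above. ACADS, a short-chain acyl-CoA dehydrogenase, rose by 0.79 ± 0.14, PPARA, a nuclear receptor for fatty acids, by 0.60 ± 0.14 and HADHB, a subunit of the mitochondrial trifunctional protein, by 0.46 ± 0.06, while ECHS1, a hydratase of the same spiral, was at −0.48 ± 0.06 (SE). CPT1A, which admits fatty acids to the mitochondrion, was at −0.03 and did not pass.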
